A study of Mus musculus with 4 samples.

Results

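The Reg lectins and surface defence genes are 7 genes whose products are secreted onto, or carried across, the gut epithelium: Reg3b, Reg3g, Reg3a, Reg1, Reg4, Dmbt1 and Pigr. They were selected by gene symbol, as features of the array annotated with exactly 1 symbol, with no threshold on measured values. All 7 were found, each with 1 feature, among 30705 genes measured. The study hybridised RNA of FACS-sorted mouse small intestinal cells to 4 Affymetrix Clariom D arrays, which read coding and long noncoding transcripts. Each array stands for 1 group, so there are no replicates, and every difference below is between 2 arrays with no estimate of its error.

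The groups were Lgr5GFP+ intestinal stem cells (ISCs) of LncGata6 mut mice, Lgr5GFP+ ISCs of Ehf-/- (knockout) mice, Lgr5GFP+ ISCs of wild-type mice, and Lgr5GFP- non-ISCs of wild-type mice. Mice of all 4 groups were 8 weeks old and carried GFP and the tamoxifen-dependent recombinase CreERT2 at Lgr5, a gene active in crypt base stem cells. LncGata6 is a long noncoding RNA encoded beside Gata6, and Ehf encodes an ETS transcription factor of epithelia. How many mice gave RNA to an array, and what allele changes LncGata6, are not given in the sources used here. The collection text of every sample also names sorting of ILCreg, a regulatory innate lymphoid cell, so which gate was used is uncertain.

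The Reg proteins are small secreted C-type lectins. Reg3b and Reg3g bind bacteria and keep them away from the epithelial surface, and both are induced in the gut by interleukin 22 (IL-22) through STAT3 and by microbial signals through MyD88. Reg1 was first known as a protein of pancreatic juice and is also made in the small intestine, and Reg4 is made by secretory cells of the gut. Dmbt1 encodes a large scavenger receptor glycoprotein of mucus and saliva that binds bacteria. Pigr encodes the polymeric immunoglobulin receptor, which carries dimeric immunoglobulin A through epithelial cells into the lumen.

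Of the 5 Reg members, 4 lie in 1 cluster on chromosome 6, where the RefSeq gene table of assembly GRCm38.p6 gives the order Reg3b, Reg3d, Reg3a, Reg2, Reg1, a pseudogene and Reg3g. Start regions of 300 bases, from 250 before to 50 after the gene's first base, were taken from RefSeq (GRCm38.p6) and matched 6 of the 7 members, with Dmbt1 the missing entry. Those of Reg3b and Reg3g are shown because both genes followed the same order across the arrays, and that of Reg1 because its order differed from theirs. Pigr followed the order of Reg3b and Reg3g too, and its window is not shown. Capitals mark matches on either strand to TTCNNNGAA, the motif bound by STAT factors, and to TATAAA, the TATA box. Reg3b lies on the plus strand at chr6:78370635-78370934, Reg3g on the minus strand at chr6:78468825-78469124 and Reg1 on the plus strand at chr6:78425733-78426032, each written 5′ to 3′ along the gene.
Reg3b: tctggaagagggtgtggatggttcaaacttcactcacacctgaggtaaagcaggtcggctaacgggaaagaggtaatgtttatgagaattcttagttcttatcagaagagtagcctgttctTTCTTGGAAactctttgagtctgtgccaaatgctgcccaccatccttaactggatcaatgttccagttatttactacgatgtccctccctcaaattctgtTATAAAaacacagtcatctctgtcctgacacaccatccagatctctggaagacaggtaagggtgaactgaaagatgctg
Reg3g: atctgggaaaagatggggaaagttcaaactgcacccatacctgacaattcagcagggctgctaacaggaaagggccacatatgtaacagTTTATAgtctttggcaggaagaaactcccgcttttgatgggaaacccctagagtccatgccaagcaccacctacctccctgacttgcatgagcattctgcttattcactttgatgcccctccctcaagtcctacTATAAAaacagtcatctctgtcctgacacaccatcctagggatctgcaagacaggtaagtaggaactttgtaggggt
Reg1: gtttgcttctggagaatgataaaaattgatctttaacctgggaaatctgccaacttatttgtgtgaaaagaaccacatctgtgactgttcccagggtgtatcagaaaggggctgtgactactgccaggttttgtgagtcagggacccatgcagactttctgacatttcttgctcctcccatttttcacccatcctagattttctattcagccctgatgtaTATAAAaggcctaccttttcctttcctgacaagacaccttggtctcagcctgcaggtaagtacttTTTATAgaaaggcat

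With positions counted from 0 at the gene's first base, the STAT motif of Reg3b starts at -129 and does not overlap the TATA match at -29. The Reg3g window had no match to the STAT motif, its TATA match starts at -27, and a second TATA match on the opposite strand starts at -161. In Reg1 the TATA match starts at -30, with another on the opposite strand at 35. Among the 6 windows the STAT motif occurred also in Pigr, at 39, and CCGGAA, an ETS motif, in 0 of the 6. Of 32851 such windows in the table, 8.30% held the STAT motif, 13.6% the TATA motif and 14.9% the ETS motif. Global alignment of the Reg3b and Reg3g windows paired 290 bases, of which 214 were identical, and the longest shared run had 29 bases, starting at -20 in both genes. That run, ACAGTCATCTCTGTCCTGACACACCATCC, covers the gene's first base. Over the whole alignment 69.0% of columns were identical between Reg3b and Reg3g, against 47.1% to 55.2% for the other 14 pairs of windows. Counted over paired bases alone, identity was 73.8% for Reg3b and Reg3g, and several pairs that aligned over fewer bases exceeded it. These were Reg3g and Reg3a (80.0%), Reg3a and Reg1 (76.1%), Reg1 and Pigr (75.5%) and Reg3b and Reg3a (75.3%). A match is a string of letters and is no evidence that a factor binds. Whether array probes distinguish the Reg3 paralogues fully is not known here.

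The arrays differed in the cells they represent, and this touches each result below. Epcam, an adhesion protein of epithelial cells, read 10.65 on the LncGata6 mut array, 3.78 on the Ehf-/- array, 9.70 on the wild-type ISC array and 7.22 on the non-ISC array (log2). A value was taken as detected when it exceeded the 95th percentile of the array's 5222 negative control features, which was 5.31 for LncGata6 mut, 5.19 for Ehf-/-, 5.62 for wild-type ISC and 5.16 for non-ISC. Of features with 1 symbol, 20.1% exceeded it for LncGata6 mut, 17.5% for Ehf-/-, 16.6% for wild-type ISC and 26.4% for non-ISC. By this limit 13 of 13 general epithelial markers were detected on the LncGata6 mut array, 0 of 13 on the Ehf-/- array, 13 of 13 on the wild-type ISC array and 12 of 13 on the non-ISC array. The Ehf-/- array instead detected 10 of 10 neutrophil and 10 of 10 macrophage markers. The non-ISC array detected 10 of 10 hepatocyte and 9 of 9 kidney tubule markers. The LncGata6 mut array detected all 14 enterocyte and all 10 T cell and intraepithelial lymphocyte markers. Enterocyte markers were also detected on the non-ISC array (13 of 14) and the wild-type ISC array (9 of 14). What part of the non-ISC readings of enterocyte and general epithelial markers came from liver or kidney RNA was not tested. T cell markers were detected on the Ehf-/- (5 of 10), non-ISC (5 of 10) and wild-type ISC (3 of 10) arrays. The non-ISC array also detected 6 of 10 macrophage and 5 of 10 neutrophil markers. Of the targeted genes, Ehf read 5.09 on the LncGata6 mut array, 3.03 on the Ehf-/- array, 6.99 on the wild-type ISC array and 3.75 on the non-ISC array, detected on 1 of 4. Gata6 read 7.62 on the LncGata6 mut array, 3.17 on the Ehf-/- array, 7.21 on the wild-type ISC array and 5.08 on the non-ISC array, and its antisense gene Gata6os was under every limit, while which feature reads LncGata6 is not known here. Lgr5 itself read 3.03 on the LncGata6 mut, 2.79 on the Ehf-/-, 9.41 on the wild-type ISC and 3.03 on the non-ISC array, so this marker was at background on both mutant arrays. Of 8 crypt base stem markers, 3 were detected on the LncGata6 mut array, 1 on the Ehf-/- array, 5 on the wild-type ISC array and 2 on the non-ISC array. Olfm4, another of them, was detected on all 4, at 8.06 on the LncGata6 mut array, 5.86 on the Ehf-/- array, 10.81 on the wild-type ISC array and 5.42 on the non-ISC array. In bulk RNA, fewer cells of a type and less RNA per cell cannot be told apart.

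**Figure D1:**
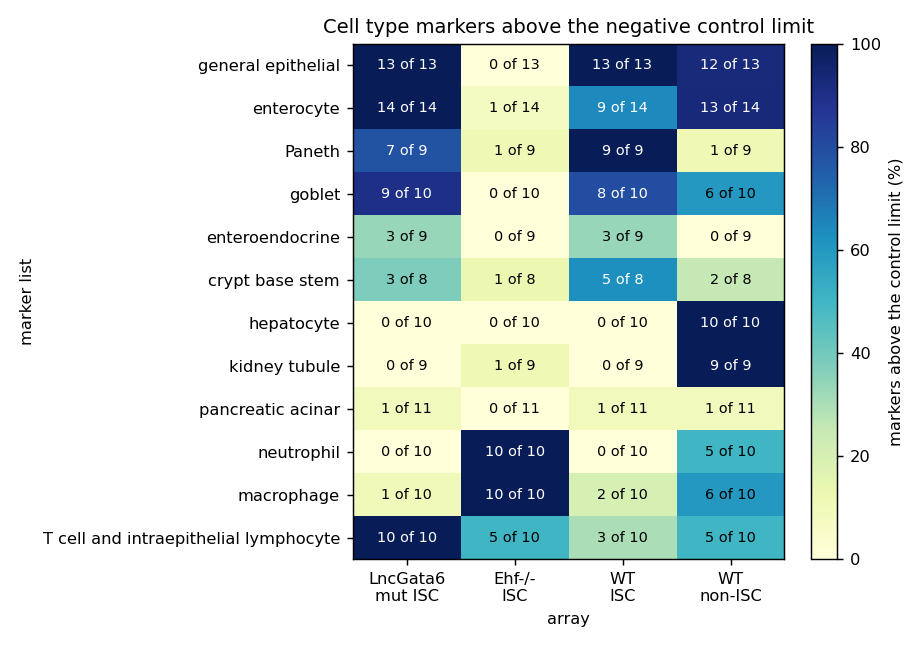
Number of markers of each cell type (rows) above the negative control limit on each array (columns), with colour giving the percentage. Epithelial markers are 0 of 13 on the Ehf-/- array and neutrophil markers 10 of 10, while hepatocyte and kidney markers reach 10 of 10 and 9 of 9 on the non-ISC array.

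Reg3b read 11.68 (log2) on the LncGata6 mut array, 2.32 on the Ehf-/- array, 10.95 on the wild-type ISC array and 8.47 on the non-ISC array. Reg3g read 10.09 on the LncGata6 mut array, 3.18 on the Ehf-/- array, 9.30 on the wild-type ISC array and 5.88 on the non-ISC array. Both lectins were detected on 3 of the 4 arrays, with the same order of arrays, and lay under the control limit on the Ehf-/- array. The range over the arrays was 9.36 for Reg3b and 6.91 for Reg3g, both limited at the low end by background.

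Pigr followed the same order, at 10.64 on the LncGata6 mut array, 3.53 on the Ehf-/- array, 10.47 on the wild-type ISC array and 9.35 on the non-ISC array. Its first and second arrays in that order, LncGata6 mut and wild-type ISC, differed by only 0.17. Dmbt1 read 9.61 on the LncGata6 mut array, 2.82 on the Ehf-/- array, 10.78 on the wild-type ISC array and 7.72 on the non-ISC array. Its highest value was thus on the wild-type ISC array. Reg4 was likewise highest there, with 7.35 on the LncGata6 mut array, 2.27 on the Ehf-/- array, 8.86 on the wild-type ISC array and 3.88 on the non-ISC array. Only 2 of its 4 values were detected.

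Reg1 had another order. It read 5.46 on the LncGata6 mut array, 2.47 on the Ehf-/- array, 3.43 on the wild-type ISC array and 8.32 on the non-ISC array. The non-ISC value stood well above its limit, the LncGata6 mut value exceeded its limit of 5.31 by little, and the other 2 were at background. Reg3a read 3.87 on the LncGata6 mut array, 2.48 on the Ehf-/- array, 4.04 on the wild-type ISC array and 2.54 on the non-ISC array, under the control limit on all 4. The 2 family genes outside the selection, Reg2 and Reg3d, were also under the limit on all 4 arrays, with values of 1.32 to 1.48 for Reg2 and 1.09 to 1.76 for Reg3d. Within the chromosome 6 cluster, then, Reg3b, Reg3g and Reg1 were detected on at least 1 array and the 3 genes Reg3a, Reg2 and Reg3d on 0. Most features with 1 symbol were under the limit on each array.

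**Figure D2:**
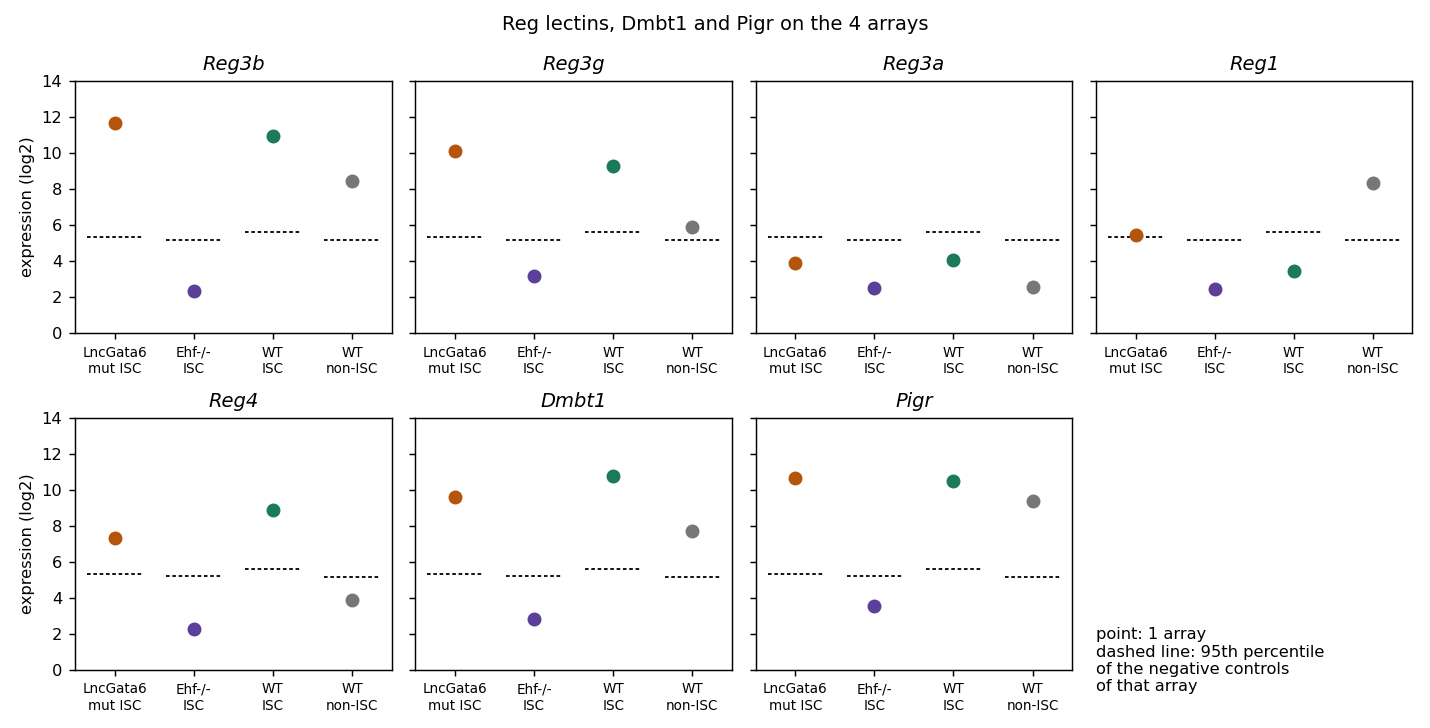
Log2 expression (vertical axis) of the 7 genes on the 4 arrays (horizontal axis), 1 point per array, with the negative control limit of each array dashed. All 7 genes lie under the limit on the Ehf-/- array, Reg3a lies under it everywhere, and Reg1 is the gene with its highest point on the non-ISC array. On the Ehf-/- array 17.5% of features with 1 symbol exceed the limit.

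Against the wild-type ISC array, the LncGata6 mut array held the same Reg3 lectins and Pigr at similar or slightly higher readings and less Reg4 and Dmbt1. Genes were called when 2 arrays differed by at least 1 (log2, 2-fold) and the brighter value reached the 75th percentile of its array's named features. On the ISC arrays that percentile lay under the control limit, so the rule can call genes detected on neither array. By this rule 1 member was higher, where 2.81% of all genes were, and 2 members were lower, where 3.02% were. Reg4, the secretory cell lectin, was 2.86-fold lower (difference -1.51), and Dmbt1 was 2.25-fold lower (-1.17). Reg1 was called higher (5.46 against 3.43), but the wild-type ISC value lay under a limit of 5.62, so no fold can be given.

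Reg3b was 1.65-fold higher (difference 0.73), Reg3g 1.72-fold (0.78) and Pigr 1.12-fold (0.17), none of them past the 2-fold rule. The difference of Reg3a was -0.17 between 2 background values. With quantile normalization Reg3g passed the rule, at 1.06, and with cyclic loess Dmbt1 no longer did, at -0.95. Among the 4572 genes detected on both arrays, Reg4 had the difference of rank 187 from the lowest and Dmbt1 of rank 339, while Reg3g had rank 437 and Reg3b rank 504 from the highest. The median of the 7 differences was 0.17, against -0.06 over all genes.

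Markers of the epithelial cell types moved on the same pair of arrays. All 9 measured Paneth markers were lower (median difference -1.79), all 14 enterocyte markers were higher (4.02), and goblet markers split, with 2 of 10 higher and 3 lower (median 0.33). The summed level of the Paneth markers was 12.07 on the LncGata6 mut and 13.66 on the wild-type ISC array (log2 of the summed linear values), and that of the enterocyte markers was 14.65 on the LncGata6 mut array and 11.62 on the wild-type ISC array. General epithelial markers had a median difference of 0.47, from -1.61 to 2.08, a range that holds the differences of the 5 members detected on both arrays. The part of cell composition in the differences of Reg4 and Dmbt1 was not tested.

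The other mucosal lectins and surface proteins split in this comparison, with 2 of 14 measured genes higher and 6 lower (median -0.33). The lower ones with the largest differences were Pla2g2a, a bactericidal phospholipase (at least 5.36-fold), the pentraxin Mptx1 (3.89-fold), the ribonuclease Ang4 (3.59-fold) and the intelectin Itln1 (3.57-fold), all except Mptx1 also in the Paneth list. The 2 higher ones were Zg16, a goblet lectin that binds Gram-positive bacteria (3.26-fold), and the mucus protein Fcgbp (2.40-fold), both named after their values were seen. Of 13 measured genes of IL-22 and interleukin 17 (IL-17) receptor signalling, 1 was higher and 0 lower (median 0.20). That gene was Il22ra1, the epithelial IL-22 receptor chain, with 8.44 on the LncGata6 mut array against 6.55 on the wild-type ISC array (3.72-fold). The cytokine gene Il22 read 2.72 on the LncGata6 mut array and 3.14 on the wild-type ISC array, and Il17a read 3.31 for LncGata6 mut and 3.95 for wild-type ISC, all under the limits. Stat3, which relays the IL-22 signal, was not called, at 6.69 on the LncGata6 mut array against 5.89 on the wild-type ISC array.

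Other epithelial genes that answer to IL-22 and IL-17 were higher in 3 of 11 cases and lower in 1 (median 0.09). The oxidase Duox2 and its maturation factor Duoxa2 were 3.60-fold and 4.18-fold higher. The third, Saa1, was at least 1.04-fold higher, while the lower gene, the chemokine Cxcl1, was under the limit on both arrays. Among 11 measured genes of Toll-like receptor and MyD88 signalling, 0 were higher and 1, the inhibitor Nfkbia, was 2.86-fold lower (list median -0.19). Myd88 itself read 5.23 on the LncGata6 mut array and 4.97 on the wild-type ISC array, under both limits. Of 8 measured genes of immunoglobulin A assembly and plasma cells, the cargo side of Pigr, 0 were higher and 2 lower. These were Jchain, which joins the immunoglobulins that Pigr carries (3.80-fold lower, 6.69 on the LncGata6 mut array against 8.61 on the wild-type ISC array), and Mzb1, a chaperone of plasma cells (at least 1.32-fold lower). Thus Jchain was lower on an array on which Pigr differed by 0.17.

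**Figure D3:**
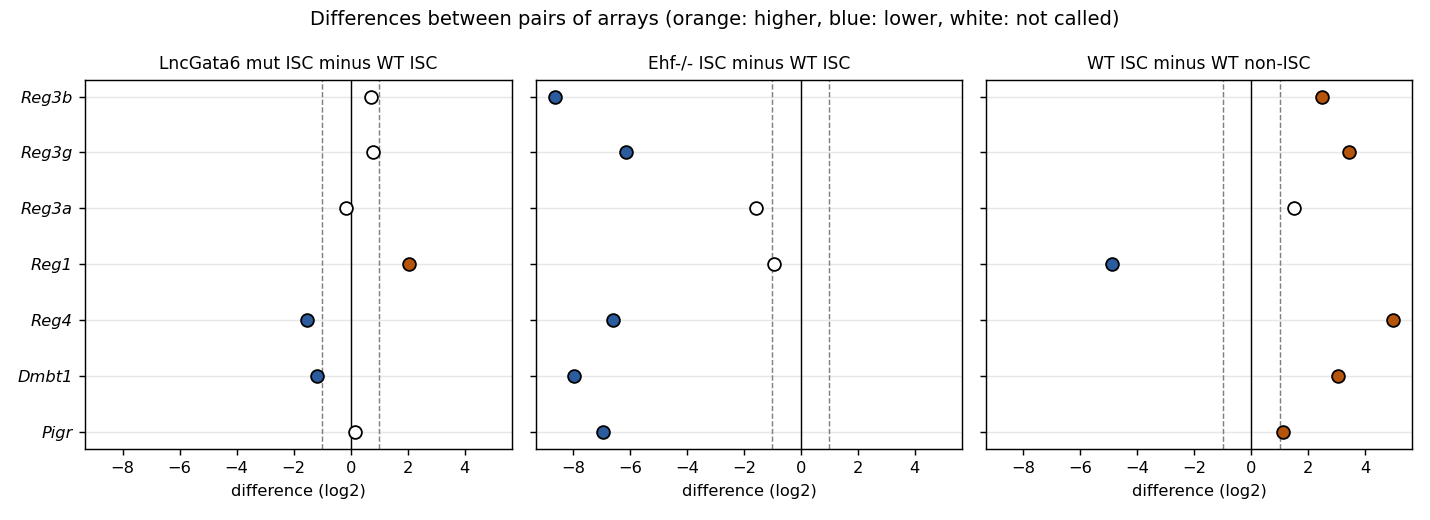
Difference in log2 expression between 2 arrays (horizontal axis) for the 7 genes (vertical axis) in 3 comparisons, with dashed lines at 1 and -1. The 5 genes called lower on the Ehf-/- array differ by -8.63 to -6.12, while the LncGata6 mut array differs from wild-type ISC by -1.51 to 2.04.

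On the Ehf-/- array every member was at background. Called lower against wild-type ISC were 5 of 7 members, where 5.29% of all genes were, and 0 were called higher, where 2.59% were. Reg3b was at least 54.4-fold lower, Dmbt1 at least 48.0-fold, Pigr at least 38.9-fold and Reg3g at least 17.3-fold. For Reg4 the bound was 12.7-fold. These are lower bounds, since the control limit of the Ehf-/- array stood in for values under it, and their order follows the wild-type ISC readings alone. Reg3a (2.48 against 4.04) and Reg1 (2.47 against 3.43) were under the limits on both arrays. The median of the 7 differences was -6.59, against -0.20 over all genes. That shift of all genes came to -0.0043 under quantile normalization, where the split of all calls was 1084 higher and 1102 lower in place of 796 and 1625, and the same 5 members were called.

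Epithelial markers were lower on the same pair of arrays in most lists. All 13 general epithelial markers were lower, with differences of -7.41 to -2.15 and a median of -4.44, and all 10 goblet and all 9 measured Paneth markers were lower too. Of the enterocyte markers 9 of 14 were lower, and of the enteroendocrine markers 4 of 9, with 0 higher in both lists. Spdef and Atoh1 (goblet), Slc15a1 (enterocyte) and Cck (enteroendocrine) were called though under the limits on both arrays. The enterocyte marker Ada, which other cells also express, was detected on both arrays and not called, at 6.04 on the Ehf-/- array against 5.69 on the wild-type ISC array. The summed level of the general epithelial markers was 7.47 on the Ehf-/- array and 12.34 on the wild-type ISC array. That of the neutrophil markers was 13.53 on the Ehf-/- array and 6.06 on the wild-type ISC array. The differences of Reg3b (-8.63) and Dmbt1 (-7.96) exceeded that of every general epithelial marker in size, but their Ehf-/- values and those of all 13 markers lay at background, so their sizes reflect the wild-type readings and cannot be ranked. Whether Ehf acts on any member in epithelial cells cannot be told apart from the background level of the epithelial markers on this array.

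Among the other mucosal lectins and surface proteins 12 of 14 were lower and 0 higher (median -5.83), as with Mptx2 (at least 45.9-fold), Itln1 (at least 40.5-fold) and Lypd8, which holds flagellated bacteria off the epithelium (at least 49.1-fold). Most of the 14 are also in the Paneth or goblet list, so these counts overlap those above. Lyz1, the Paneth lysozyme, named after its values were seen, was the exception in being still detected, at 9.29 against 11.59 on the wild-type ISC array, and whether its probes also read the closely related myeloid lysozyme Lyz2 is not known here. In the IL-22 and IL-17 receptor list 1 of 13 was higher and 2 were lower (median 0.02). The epithelial chains Il22ra1 (at least 2.56-fold) and Il17rc (at least 2.89-fold) were lower, and Il17ra, the widely expressed chain, was at least 1.34-fold higher. Stat3 (6.43 against 5.89) and Jak1 (7.58 against 7.05) were detected on both arrays and not called.

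Genes that answer to IL-22 and IL-17 ran both ways, 4 of 11 higher and 4 lower (median 0.11). Higher were Lcn2 (at least 16.5-fold), an iron-sequestering protein, the calprotectin subunits S100a8 (a bound of 56.2-fold) and S100a9 (a bound of 66.2-fold), which are also in the neutrophil list, and Saa3, which was under both limits. Duox2 was at least 2.45-fold lower and Duoxa2 at least 2.66-fold. The other lower genes, Nos2 and Cxcl1, were under both limits. In the Toll-like receptor and MyD88 list 1 of 11 was higher, Tlr2 (at least 1.12-fold), and 2 were lower (list median 0.29). Of these, Nfkbia was 5.02-fold lower and Tlr3 was under both limits. In the immunoglobulin list 3 of 8 were higher and 0 lower, among them Ighm (15.4-fold) and the B cell gene Ms4a1 (at least 3.91-fold), while Jchain, at 8.02 against 8.61, was not called. The transport receptor gene Pigr was thus at background on the array on which Ighm was brightest.

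Between wild-type ISCs and non-ISCs, 5 of 7 members were higher, where 3.83% of all genes were, and 1 was lower, where 7.07% were. Reg4 was at least 13.0-fold higher on the wild-type ISC array, Reg3g 10.7-fold, Dmbt1 8.29-fold, Reg3b 5.59-fold and Pigr 2.18-fold. Reg1 was the lower one, at least 6.47-fold, and Reg3a (4.04 against 2.54) was under the limits on both. With the 99th percentile of the controls as the limit, the bounds were at least 6.48-fold for Dmbt1, 2.33-fold for Reg3g, 1.72-fold for Reg4 and 1.09-fold for Reg1. Of the 4558 genes detected on both arrays, Reg3g had the difference of rank 34 from the highest, Dmbt1 of rank 71, Reg3b of rank 122 and Pigr of rank 406. The median difference of the 7 was 2.48, against -0.11 over all genes, and the split of all calls was 1177 higher and 2172 lower, or 1692 and 1721 under quantile normalization, with 5 and 1 members in both settings.

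General epithelial markers were higher in 11 of 13 cases on the same pair, with a median difference of 1.57, from 0.28 to 3.71. The summed level of these markers was 12.34 on the wild-type ISC array and 10.34 on the non-ISC array. The 4 members detected on both arrays, Reg3b, Reg3g, Dmbt1 and Pigr, lay within that range, and Reg1, with -4.89, ran the other way. Reg4 differed by 4.98 from a non-ISC value under the limit, so its place relative to that range is not fixed. Paneth markers were higher in all 9 measured cases (median 6.03), and enterocyte markers were lower in 6 of 14 cases and higher in 1 (-0.55). Hepatocyte markers summed to 6.18 on the wild-type ISC array and 14.77 on the non-ISC array, and kidney tubule markers to 5.99 for wild-type ISC and 13.43 for non-ISC. The part of liver and kidney RNA in the non-ISC readings of Reg1, Pigr and the general epithelial and enterocyte markers was not tested. Pancreatic acinar markers were detected in 1 of 11 cases on the non-ISC array, with Cela1 at 5.20 against a limit of 5.16, and in 1 of 11 on the wild-type ISC array, that of Clps. Their summed level was 9.20 on the wild-type ISC array and 7.39 on the non-ISC array, while the list's median difference was -0.60, since every acinar marker other than Clps read lower on the wild-type ISC array.

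The other mucosal lectins and surface proteins were higher on the wild-type ISC array in 11 of 14 cases and lower in 0 (median 2.51), among them Mptx2 (at least 46.9-fold), Itln1 (at least 41.4-fold), Ang4 (at least 28.8-fold) and Mptx1 (at least 15.9-fold). Their non-ISC values were all under the limit, so they have no order among themselves. Most measured genes of this list are also in the Paneth or goblet list, so its counts are not separate from theirs. The IL-22 and IL-17 receptor list had 0 of 13 higher and 1 lower, Il6st (3.95-fold), a receptor chain of the interleukin 6 family, with a median of 0.12. Il22ra1 read 6.55 on the wild-type ISC array and 5.97 on the non-ISC array. Genes that answer to these cytokines were higher in 4 of 11 cases and lower in 4 (median -1.04). Of the higher ones, Nos2 and Cxcl1 were under the limits on both arrays. Of the lower ones, Lcn2 and Saa1 had a bound under 1, so no fold is given. Duoxa2 was at least 2.72-fold higher, whereas S100a8 was lower by at least 4.76-fold and its partner S100a9 by at least 5.05-fold. Both subunits are also in the neutrophil list. In the Toll-like receptor list 2 of 11 were higher, of which Nfkbia was 4.55-fold higher and Tlr3 under both limits. In the immunoglobulin list 2 of 8 were higher, Jchain (9.59-fold) and Mzb1 (at least 1.47-fold), and Ighm was 2.62-fold lower. Jchain and Pigr were thus both higher on the wild-type ISC array.

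The remaining pairs of arrays share samples with those above and are given side by side only. On the LncGata6 mut against the Ehf-/- array, 6 members were higher, where 6.16% of all genes were, and 0 lower, where 3.47% were. All have lower bounds only, such as 89.9-fold for Reg3b, 43.6-fold for Pigr and 1.21-fold for Reg1. The order of these bounds follows the LncGata6 mut readings alone. On the LncGata6 mut against the non-ISC array, 5 were higher, where 3.66% of genes were, with Reg3g 18.5-fold, Reg3b 9.25-fold, Dmbt1 3.69-fold, Pigr 2.44-fold and Reg4 no less than 4.55-fold higher. Reg1 was 7.22-fold lower there, where 6.87% of genes were lower, and had the difference of rank 28 from the lowest among 5383 genes detected on both arrays, while Reg3g had rank 7 from the highest. On the Ehf-/- against the non-ISC array, 5 members were lower, where 9.83% of genes were, and 0 higher, where 3.01% were. Pigr was at least 17.9-fold lower, Reg3b at least 9.72-fold, Reg1 at least 8.74-fold, Dmbt1 at least 5.79-fold and Reg3g at least 1.61-fold. Here the order of the bounds follows the non-ISC readings alone. Reg4 was under the limit on both of those arrays.

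Patterns were also compared after each gene was centred on its own mean, with likeness measured as the root mean square difference over the 4 arrays among 7722 genes detected on at least 1 of them. Reg4 was nearest to Spink4, a protease inhibitor of goblet cells (0.17), the alpha-defensin pseudogene Defa-ps10 (0.26) and the Paneth alpha-defensin Defa26 (0.30). Reg3g was nearest to the intestinal cadherin Cdh17 (0.30), the mucin Muc2 (0.32) and Epcam (0.36). Reg3b was nearest to the galectin Lgals2 (0.49), Lypd8 (0.50) and the goblet protein Clca1 (0.53). Dmbt1 shared the first pair of these, Lypd8 (0.46) and Lgals2 (0.54), followed by the keratin Krt8 (0.60).

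Pigr was nearest to the glucuronosyltransferase Ugt2b34 (0.34), the urea cycle enzyme Otc (0.57) and Lypd8 (0.58). Reg1 was nearest to the vitamin C transporter Slc23a1 (0.24), the gluconeogenic enzyme Pck1 (0.27) and the methyltransferase-like Mettl7b (0.33). Reg3a, whose pattern is one of background values, was nearest to Tom1l1 (0.04), Cdkn2b (0.07) and Ghrl (0.08), each with a small range. Among the members the nearest pair was Dmbt1 and Pigr (0.70) and the farthest Reg1 and Reg4 (3.57), while Reg3b and Reg3g, whose start regions had the highest identity over all alignment columns, were 1.28 apart. With 4 arrays that differ in cell content, these distances describe the arrays and carry no test.

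**Figure D4:**
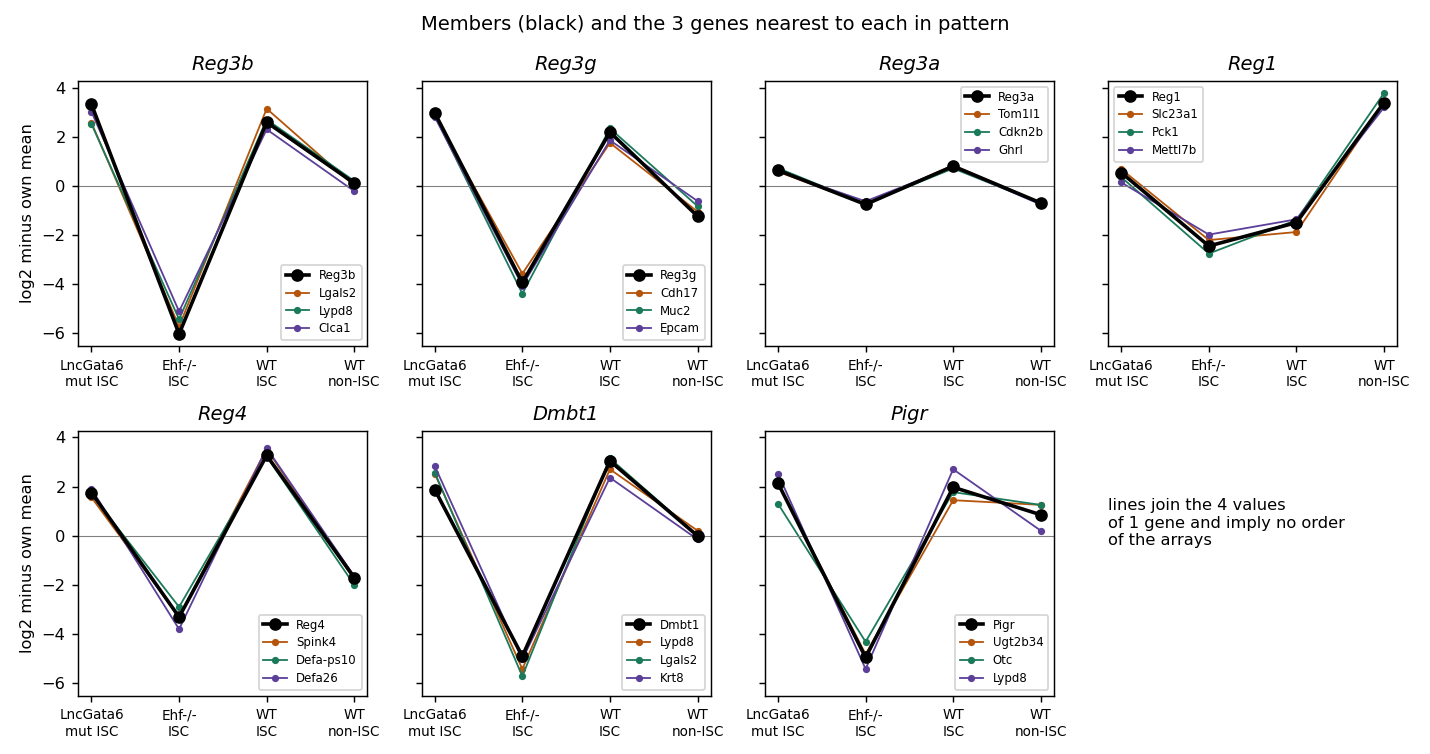
Log2 expression minus each gene's own mean (vertical axis) on the 4 arrays (horizontal axis) for each member in black and its 3 nearest genes in colour. Reg3b, Reg3g, Reg4, Dmbt1 and Pigr share a deep low point on the Ehf-/- array, and Reg1 peaks on the non-ISC array with Slc23a1, Pck1 and Mettl7b.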

How the data were processed

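Total RNA of 4 samples of sorted cells, 1 per group, was labelled with biotin and hybridised to 1 array each, per the labels' protocols. The deposited log2 values, 1 per feature, were made with Affymetrix Power Tools and RMA, per the submitters' processing notes. Their versions are not given in the sources used here, and RMA compresses differences of dim features. The log scale was read from the values, which ran from -0.18 to 13.1. Medians of named features were 3.41, 3.24, 3.42 and 3.54 on the LncGata6 mut, Ehf-/-, wild-type ISC and non-ISC arrays, so whether arrays were equalised over those features, and how they were centred, is unknown. Precision is limited by the number of arrays.

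Of 72688 features, 31261 carried 1 gene symbol after updating 1792 through the RefSeq gene table (GRCm38.p6), 1489 carried several and were left out, and the rest were unnamed here. This gave 30705 genes. For the 441 genes with several features, the one with the highest mean was used. The 75th percentiles used in the call rule were 4.93, 4.60, 4.97 and 5.26 in the same order of arrays. Where the dimmer value lay under the control limit, the limit replaced it and the fold is "at least". No fold is given where both values lay under their limits or the bound came to under 1.

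The set of members, found in the files by symbol alone, and the lists were chosen with earlier results of these data known, and the TATA motif and the shared run of bases after the values were seen. Named genes are the members, the 3 nearest genes to each (predicted genes and Rik symbols left out), and up to 4 called genes per list, except where stated or where a named pathway gene is given for its level. Called genes under the limits on both arrays, or with no fold, are named beyond that number. Calls were tested on simulated data. The simulated shifts were larger than the rule needs, so this gives no error rate for these arrays. Tools were Python 3.11.15, pandas 2.3.3, Biopython 1.88 and limma 3.58.1. Alternatives were 3 scalings, the median of a gene's features, 2 other limits on the brighter value, a 4-fold limit and the 99th percentile of controls. Protein sequences, and genes without a single-symbol feature such as Igha, were not used here.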

Additional observations from a re-analysis of the deposited data

How the results depend on the processing

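With 1 array per group there is no error estimate, and no alternative supplies one. Against wild-type ISC, members called higher on the LncGata6 mut array numbered 2 under quantile normalization, in place of 1, where 3.15% of all genes were. Members called lower there numbered 1 under cyclic loess (2.20% of all genes) and 0 with a 4-fold limit (0.49%), in place of 2. The 4-fold limit also left 3 in place of 5 members higher on the LncGata6 mut than on the non-ISC array, where 1.41% of all genes were. With the 99th percentile of the controls as the limit, Reg1 and Reg4 were each detected on 1 array in place of 2, and the bounds on the Ehf-/- array against wild-type ISC shrank to at least 9.45-fold lower for Reg3b, 8.35-fold for Dmbt1, 6.76-fold for Pigr, 3.01-fold for Reg3g and 2.21-fold for Reg4. For the LncGata6 mut against the Ehf-/- array they became 15.6-fold for Reg3b, 7.58-fold for Pigr, 5.18-fold for Reg3g and 3.71-fold for Dmbt1, with none left for Reg1 or Reg4. For the LncGata6 mut against the non-ISC array, Reg3g was at least 4.02-fold higher, Dmbt1 at least 2.88-fold higher and Reg1 at least 1.35-fold lower, with no bound for Reg4. For the LncGata6 mut against the wild-type ISC array, Reg4 was at least 1.96-fold lower. For the Ehf-/- against the non-ISC array, Pigr was at least 3.11-fold, Reg3b 1.69-fold and Reg1 1.52-fold lower, with no bound for Reg3g or Dmbt1. The other 85 counts of members or detected arrays stayed within 1.5 times. Among them, Reg3g and Dmbt1 were each detected on 2 arrays in place of 3 with the 99th percentile limit. Of single differences, 282 kept their call, 6 gained one and 6 lost it, and 0 called differences changed sign. Gains came from Reg3a in 4 cases and Reg4 in 1 without a limit on brightness, and from Reg3g under quantile normalization. Part of this tally was fixed in advance. Each member has 1 feature, so the median of a gene's features could not change any member's call or count. The brightness limits and the 4-fold limit leave differences unchanged, so a sign could change only under the 3 scalings. No paired analysis was possible because each group has 1 array. The split of all calls moved with scaling also for the LncGata6 mut array against wild-type ISC (862 higher and 926 lower, or 1059 and 674 with cyclic loess). Against the Ehf-/- array it was 1892 and 1066, or 1482 and 1371 with quantile normalization. For the non-ISC comparisons it was 1125 and 2110 on the LncGata6 mut array, or 1528 and 1590, and 923 and 3019 on the Ehf-/- array, or 1605 and 1940.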
